A study of Homo sapiens with 4 samples.

Results

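The ribosome biogenesis and nucleolar genes described here are 56 human genes for RNA polymerase I transcription, ribosomal RNA modification and processing, and assembly of the ribosomal subunits. They were taken by name from a list of such genes and kept where the mean level was at least 1 CPM (a count scaled to 1000000 counts per library). The 56 listed genes each matched 1 of the 20286 gene identifiers in the files, all 56 had such a mean, and all 56 were among the 12698 genes with enough reads to test. RNA was sequenced from 4 cultures of HLE, an established human hepatocellular carcinoma line, grown in medium with serum and given no further treatment. In 2 cultures (CYR61 1 and CYR61 2) the cells stably expressed CYR61, a secreted matricellular protein of the CCN family, and in 2 cultures (Vector 1 and Vector 2) they stably carried the vector alone. Per the series description, each culture came from the total population of its stable line, and the cultures of a line were independent. The sources used here do not say whether a line was made repeatedly, so p-values measure the spread between cultures and not between separately made lines.

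Ribosomes are built mostly in the nucleolus. RNA polymerase I transcribes the ribosomal RNA precursor, on which a large assembly called the small subunit processome forms. Guide RNA particles modify the precursor, box C/D particles by methylation and box H/ACA particles by pseudouridylation, and further factors cut, fold and export the subunits. Demand for ribosomes is high in growing cells, nucleoli are commonly enlarged in liver cancers, and many genes of the pathway are known targets of MYC, a transcription factor that binds the E-box sequence.

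The libraries held 21388465 and 16186988 estimated counts in CYR61 cells and 19118548 and 21588822 in Vector cells. The CYR61 gene itself (CCN1 by its current name, chr1:85580761-85583962 of hg38, plus strand) checked the labels. Its level was 8091 and 8620 CPM in CYR61 cells, against 221 and 218 CPM in Vector cells, which is 38-fold. Of 9 hepatocyte markers, ALB, APOA2, APOB and TTR had 0 counts in the 4 libraries, and the others had counts in some or all libraries. The 9 hepatocyte markers together gave 35.6 and 33 CPM in CYR61 cells and 23.3 and 21.8 CPM in Vector cells, and 1 of them, FGB, was higher in CYR61 cells by the test given below. The 9 markers of other cell types gave 61.8 and 67.5 CPM in CYR61 cells and 85 and 79.8 CPM in Vector cells, with CD3E and KDR at 0 counts, and none of them passed that test. The part of these markers in the results below was not tested. In RNA from whole cultures, fewer cells that express a gene and less of its RNA per cell cannot be told apart.

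As background on sequence, the promoter of each gene was searched for the E-box CACGTG, which reads the same on both strands, in RefSeq's GRCh38.p14 windows of 250 bases before to 50 after the transcription start. A window was at hand for 46 of the 56 genes, and 18 of them (39.1%) held the motif. The share was 25.7% of 105 other genes of the pathway, 6.35% of 63 ribosomal protein genes and 12.8% of 10183 tested genes with a window. In 17 of the 18 genes, an E-box began within 40 bases of the start. The stretches below run from 150 bases before to 30 after the start and are shown for 3 genes with an E-box that rose in CYR61 cells and, for contrast, for FBL, a gene with an E-box whose level was about the same in both groups. They read 5′ to 3′ on the gene's strand, with the E-box in capitals.
UTP4 (chr16:69132499-69132678, plus strand): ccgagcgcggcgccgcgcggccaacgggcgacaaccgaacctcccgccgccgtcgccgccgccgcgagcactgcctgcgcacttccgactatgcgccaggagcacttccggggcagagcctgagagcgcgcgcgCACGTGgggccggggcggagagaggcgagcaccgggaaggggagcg
UTP20 (chr12:101279955-101280134, plus strand): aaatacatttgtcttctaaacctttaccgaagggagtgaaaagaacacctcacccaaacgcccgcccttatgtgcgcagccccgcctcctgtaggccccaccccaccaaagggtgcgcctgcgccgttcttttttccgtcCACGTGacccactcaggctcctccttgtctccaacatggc
RRP9 (chr3:51941875-51942054, minus strand): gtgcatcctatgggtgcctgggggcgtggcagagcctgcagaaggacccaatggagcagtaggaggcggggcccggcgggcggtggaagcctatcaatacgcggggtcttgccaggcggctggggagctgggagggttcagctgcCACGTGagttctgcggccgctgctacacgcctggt
FBL (chr19:39846350-39846529, minus strand): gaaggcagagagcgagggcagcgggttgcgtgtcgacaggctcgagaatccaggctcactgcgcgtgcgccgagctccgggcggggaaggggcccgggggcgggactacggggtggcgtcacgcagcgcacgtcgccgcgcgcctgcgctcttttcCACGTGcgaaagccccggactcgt
The motif began 16 bases before the start in UTP4, 10 before in UTP20, 5 before in RRP9 and 7 after in FBL. A match is a description of these letters and does not show binding.

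The comparison asks how ribosome biogenesis transcripts differed when CYR61 was stably expressed. Of the 56 genes, 7 rose in CYR61 cells and 0 fell, judged by edgeR's quasi-likelihood test with a Benjamini-Hochberg adjusted p below 0.05 over all tested genes (called, in what follows). They were NOP2, NOP16, NCL, UTP20, DKC1, UTP4 and RRP9, and their rises were 1.41-fold to 1.69-fold. Over all tested genes, 1.83% were called higher and 4.56% lower. The other 49 genes did not pass the test. Without the adjustment, p was below 0.05 with a higher level in CYR61 cells for 43 of the 56 genes, against 9.77% of all tested genes, and with a lower level for 0.

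The differences were small and mostly in 1 direction. The log2 fold change (CYR61 minus Vector) was above 0 for 52 of the 56 genes, against 49.2% of all tested genes. Its median was 0.40 (1.32-fold), against -0.006 for all tested genes, and it ranged from -0.06 for NOP53 to 0.76 for NOP2. Both CYR61 libraries lay above both Vector libraries for 48 genes, against 23.9% of all tested genes. Both lay below for 0 genes, against 27.7%. The groups overlapped for the remaining 8, which were POLR1E, FBL, NOP58, NHP2, NOP10, NOP53, RRP15 and NOL9. The genes share libraries and scaling, so these counts are not 56 independent observations.

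Added together, the 56 genes took 9741 and 9015 CPM in CYR61 cells, against 7207 and 7327 CPM in Vector cells. Without NCL and NPM1, which gave the largest levels in CPM, the sums were 6714 and 6491 CPM in CYR61 cells and 5245 and 5145 CPM in Vector cells. The median gene stood at 92.2 and 88.4 CPM in CYR61 cells and at 69.9 and 64.1 CPM in Vector cells. None of these sums or medians overlapped between the groups.

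**Figure D1:**
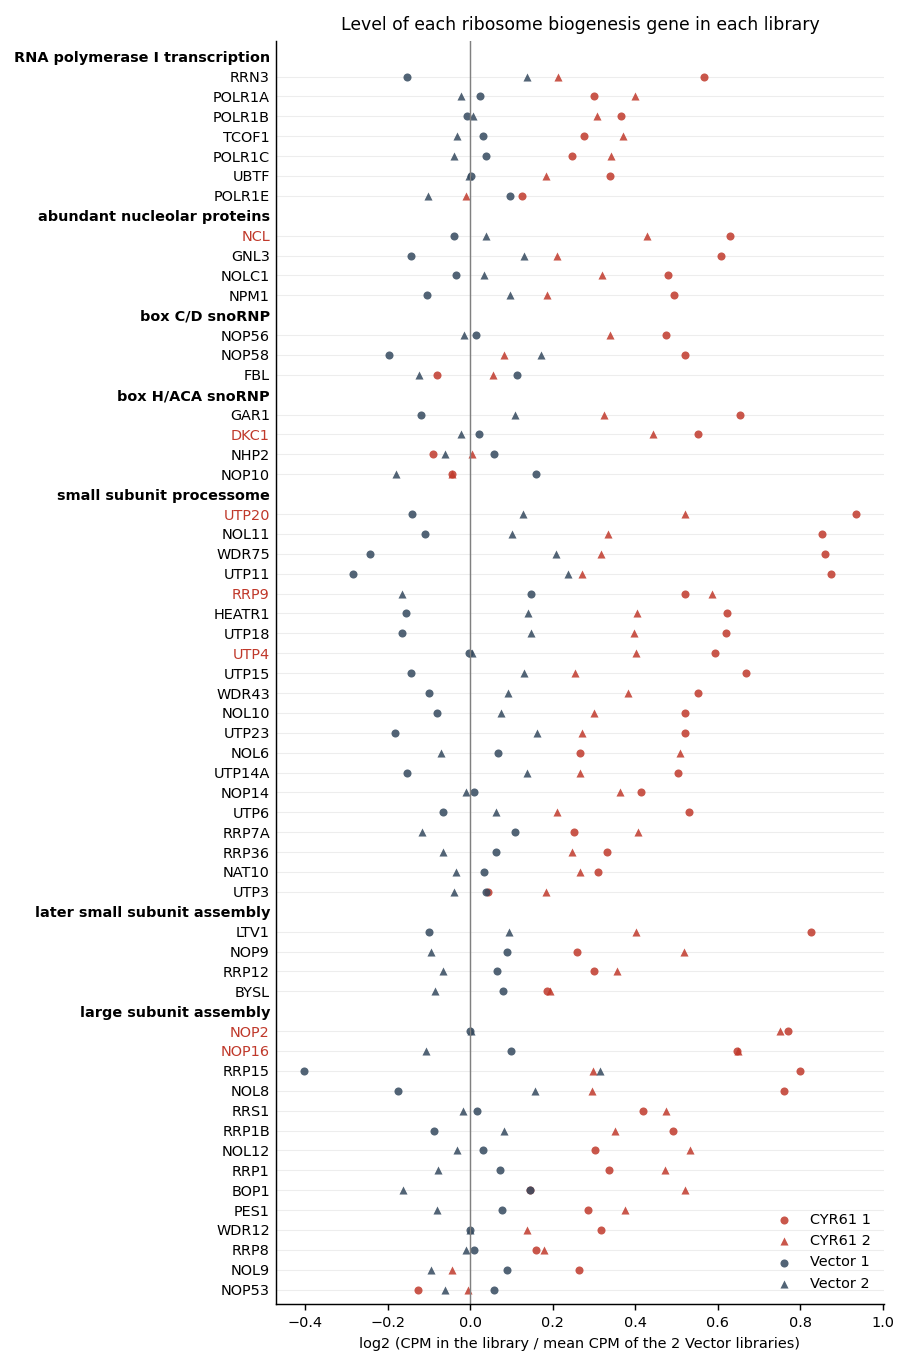
The level of each of the 56 genes in each library as log2 of its CPM over the mean CPM of the 2 Vector libraries, grouped by role, with the 7 called genes named in red. For 48 genes both red points (CYR61) lie to the right of both dark points (Vector).

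RNA polymerase I and its factors start the pathway, and 0 of their 7 genes were called higher or lower. Unadjusted p was below 0.05 with a higher level for 6, against 9.77% of all tested genes, and with a lower level for 0. The median log2 fold change was 0.32. POLR1A, the largest subunit of the enzyme, had 194 and 208 CPM in CYR61 cells, against 160.1 and 155 CPM in Vector cells. The groups did not overlap, but the log2 fold change of 0.35 (SE 0.11) missed the threshold (adjusted p = 0.092 by edgeR). TCOF1, which encodes treacle, a nucleolar cofactor of the polymerase, had 451 and 481 CPM in CYR61 cells and 380.4 and 365 CPM in Vector cells (log2 fold change 0.32, SE 0.11, adjusted p = 0.104 by edgeR). Per kilobase of exon it was the most abundant of the 7, at 40.7 CPM in CYR61 cells and 32.6 CPM in Vector cells. POLR1B, the second-largest subunit, POLR1C, a subunit shared with RNA polymerase III, RRN3, the initiation factor, and UBTF, the upstream binding factor, had log2 fold changes of 0.34, 0.29, 0.40 and 0.26, with adjusted p from 0.108 to 0.197 by edgeR. On the opposite strand POLR1C shares 2.5% of its exon bases with LRRC73, 2.3% with YIPF3 and 6.3% with XPO5. With the whole mean of each added in turn, the log2 ratio of the summed means was 0.28, -0.04 and 0.05. Such a sum takes in all reads of the partner, so an abundant partner draws it toward the partner's own change. It cannot show how reads on the shared bases bear on POLR1C. POLR1E, a further subunit, had 44.8 and 40.8 CPM in CYR61 cells and 43.9 and 38.3 CPM in Vector cells. Its groups overlapped, and its log2 fold change of 0.06 had an SE of 0.14.

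Of the 4 abundant nucleolar proteins, 1 was called higher, against 1.83% of all tested genes. NCL, which encodes nucleolin, an RNA-binding protein of the nucleolus (ENSG00000115053, chr2:231453531-231483641, minus strand), had 1235 and 1074 CPM in CYR61 cells, against 777 and 820.2 CPM in Vector cells. Both CYR61 libraries lay above both Vector libraries. The mean was 1155 ± 113 CPM in CYR61 cells and 798 ± 30.8 CPM in Vector cells (SD, n = 2 each), a 1.45-fold rise (log2 fold change 0.53, SE 0.11, adjusted p = 0.0236 by edgeR). The call was lost without CYR61 1 (adjusted p = 0.143 by edgeR) and without Vector 1 (adjusted p = 0.087 by edgeR). NOLC1, a chaperone of small nucleolar RNA particles, had 623 and 557 CPM in CYR61 cells and 436 and 457 CPM in Vector cells (log2 fold change 0.40, SE 0.11, adjusted p = 0.0609 by edgeR). GNL3, the nucleolar GTPase nucleostemin, had a log2 fold change of 0.42 (SE 0.16, adjusted p = 0.133 by edgeR). NPM1, which encodes nucleophosmin, was the most abundant of the 56 genes per kilobase of exon, at 424 CPM in CYR61 cells and 333 CPM in Vector cells. It had 1793 and 1449.9 CPM in CYR61 cells, against 1185 and 1362 CPM in Vector cells, and a log2 fold change of 0.35 (SE 0.13, adjusted p = 0.144 by edgeR). The GENCODE 29 annotation names 45 pseudogenes after NPM1, so its counts are uncertain where the authors' counting could split reads among copies. NOP56 has 3 such pseudogenes, RRN3, NCL, NHP2 and PES1 have 2 each, and LTV1 and NOL8 have 1 each.

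Of the 7 genes for proteins of box C/D and box H/ACA particles, 1 was called higher, against 1.83% of all tested genes. DKC1, the pseudouridine synthase of the H/ACA particle (ENSG00000130826, chrX:154762742-154777689, plus strand), had 365 and 339 CPM in CYR61 cells, against 253 and 245 CPM in Vector cells. Its mean was 352 ± 18.8 CPM in CYR61 cells and 249 ± 5.4 CPM in Vector cells (SD, n = 2 each), and the 1.41-fold rise was called (log2 fold change 0.50, SE 0.11, adjusted p = 0.0245 by edgeR). The call was lost without CYR61 1, without Vector 1 or without Vector 2 (adjusted p = 0.114, 0.108 and 0.156 by edgeR). GAR1, a small protein of the same particle, had 17.3 and 13.8 CPM in CYR61 cells and 10.1 and 11.9 CPM in Vector cells, with the same log2 fold change of 0.50 but an SE of 0.19 (adjusted p = 0.137 by edgeR). Its groups did not overlap. NHP2 and NOP10, the other core proteins of that particle, overlapped between groups. NHP2 had 123 and 132 CPM in CYR61 cells and 137 and 126 CPM in Vector cells, with a log2 fold change of -0.04 (SE 0.11), or 0.06 with a trend on GC content removed. NOP10 had 60.7 and 60.7 CPM in CYR61 cells and 69.9 and 55.2 CPM in Vector cells (log2 fold change -0.04, SE 0.14). Per kilobase of exon NOP10 was the most abundant of these 4 genes, at 110 CPM in CYR61 cells and 113 CPM in Vector cells. NHP2 shares 27.4% of its exon bases with RMND5B on the opposite strand, and since the strandedness of the libraries is not given, reads of such partners cannot be told apart.

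The box C/D proteins had 0 calls among 3 genes. FBL, which encodes fibrillarin, the methyltransferase of these particles, had 417 and 458 CPM in CYR61 cells and 477 and 405 CPM in Vector cells. Its groups overlapped, and its log2 fold change was -0.01 (SE 0.12, adjusted p = 0.969 by edgeR), or 0.0045 with RLE size factors. Per kilobase of exon its level was 201 CPM in CYR61 cells and 203 CPM in Vector cells, the highest of the 3. NOP56, a core scaffold protein of the particle, had 197 and 179.6 CPM in CYR61 cells, against 143 and 141 CPM in Vector cells, without overlap (log2 fold change 0.41, SE 0.11, adjusted p = 0.0598 by edgeR). NOP58, the paired scaffold protein, had 99.8 and 73.7 CPM in CYR61 cells and 60.7 and 78.4 CPM in Vector cells, with overlap. Its log2 fold change was 0.32 (SE 0.17, adjusted p = 0.3 by edgeR). The differences of FBL, NHP2 and NOP10 from their particle partners were not tested.

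The small subunit processome was the largest role, with 20 genes. Of these 3 were called higher, against 1.83% of all tested genes. All 20 had both CYR61 libraries above both Vector libraries, against 23.9% of all tested genes. All 20 had a log2 fold change above 0, against 49.2%, and the median was 0.44. UTP20, a large scaffold protein of the processome (ENSG00000120800, chr12:101280109-101386616, plus strand), had 115 and 86.4 CPM in CYR61 cells, against 54.6 and 65.8 CPM in Vector cells. Its mean was 101 ± 20.3 CPM in CYR61 cells and 60.2 ± 7.88 CPM in Vector cells (SD, n = 2 each), and the rise was 1.67-fold (log2 fold change 0.74, SE 0.16, adjusted p = 0.0237 by edgeR). The call was lost without CYR61 1, without Vector 1 or with libraries scaled by size alone (adjusted p = 0.0636, 0.0769 and 0.0538 by edgeR). RRP9, a protein of the U3 small nucleolar RNA particle (ENSG00000114767, chr3:51933430-51941941, minus strand), had 86.3 and 90.3 CPM in CYR61 cells, against 66.7 and 53.7 CPM in Vector cells. The mean was 88.3 ± 2.86 CPM in CYR61 cells and 60.2 ± 9.23 CPM in Vector cells (SD, n = 2 each). RRP9 rose 1.47-fold (log2 fold change 0.55, SE 0.14, adjusted p = 0.0412 by edgeR), and the call was lost without Vector 2 (adjusted p = 0.319 by edgeR). RRP9 was also the most abundant of the 20 per kilobase of exon, at 56 CPM in CYR61 cells and 38.2 CPM in Vector cells.

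UTP4, or cirhin (ENSG00000141076, chr16:69131291-69231130, plus strand), belongs to the transcription-linked UTP proteins, which bind the precursor early and are known to bear on its synthesis. It had 156 and 137 CPM in CYR61 cells, against 103 and 104 CPM in Vector cells. The mean was 146 ± 13.7 CPM in CYR61 cells and 103 ± 0.397 CPM in Vector cells (SD, n = 2 each), a 1.42-fold rise (log2 fold change 0.50, SE 0.12, adjusted p = 0.0341 by edgeR). The call was lost without CYR61 1, without Vector 1 or without Vector 2 (adjusted p = 0.175, 0.181 and 0.151 by edgeR). UTP4 shares 1.2% of its exon bases with CHTF8 on the opposite strand. With the whole means of CHTF8 added (83.3 CPM in CYR61 cells and 77.6 CPM in Vector cells), the log2 ratio was 0.34. As for POLR1C, this sum cannot show the part of shared reads. The other members of that complex in the list, HEATR1, WDR43, WDR75, NOL11 and UTP15, missed the threshold with log2 fold changes of 0.52, 0.47, 0.62, 0.62 and 0.48. HEATR1 had 204 and 175 CPM in CYR61 cells and 119 and 146 CPM in Vector cells (adjusted p = 0.0508 by edgeR). It shares 23.2% of its exon bases with LGALS8 on the opposite strand. WDR43 had 142 and 127 CPM in CYR61 cells and 90.7 and 104 CPM in Vector cells (adjusted p = 0.0528 by edgeR). The remaining processome genes were UTP6, UTP11, UTP14A, UTP18, UTP23, NOL6, NOL10, NOP14, RRP7A, RRP36, NAT10 and UTP3, and none was called. The first 11 of them had log2 fold changes from 0.29 for NAT10, the acetyltransferase of small subunit RNA, to 0.61 for UTP11. UTP23 (log2 fold change 0.40) shares 2.1% of its exon bases with EIF3H and 9.9% with RAD21 on the opposite strand. With the whole mean of each added in turn, the log2 ratio was 0.07 and 0.16. Both partners were far more abundant than UTP23, so these sums cannot show the part of shared reads. UTP3 had 27.3 and 30.1 CPM in CYR61 cells and 27.2 and 25.7 CPM in Vector cells (log2 fold change 0.11, SE 0.15).

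Later steps of small subunit assembly were represented by 4 genes, of which 0 were called. All 4 had both CYR61 libraries above both Vector libraries, against 23.9% of all tested genes. LTV1, an assembly and export factor of the small subunit, had 38.9 and 29 CPM in CYR61 cells and 20.5 and 23.4 CPM in Vector cells (log2 fold change 0.63, SE 0.18, adjusted p = 0.061 by edgeR). NOP9, an RNA-binding assembly factor, had 79.8 and 95.5 CPM in CYR61 cells and 70.9 and 62.5 CPM in Vector cells, without overlap. Its log2 fold change was 0.39 (SE 0.14, adjusted p = 0.115 by edgeR). NOP9 shares 32.4% of its exon bases with CIDEB on the opposite strand. RRP12, a HEAT-repeat export factor, had a log2 fold change of 0.33. BYSL, or bystin, was the most abundant of the 4 per kilobase of exon, at 33.5 CPM in CYR61 cells and 29.4 CPM in Vector cells, and its log2 fold change was 0.19 (SE 0.12, adjusted p = 0.396 by edgeR).

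Large subunit assembly had 14 genes, of which 2 were called higher, against 1.83% of all tested genes. The median log2 fold change of the 14 was 0.41. NOP2, a methyltransferase that modifies a cytosine of the large subunit RNA (ENSG00000111641, chr12:6556863-6568691, minus strand), had 212 and 209 CPM in CYR61 cells, against 124 and 124 CPM in Vector cells. The libraries of each group were nearly equal and the groups lay far apart. Its mean was 210.2 ± 2.1 CPM in CYR61 cells and 124 ± 0.112 CPM in Vector cells (SD, n = 2 each), and its 1.69-fold rise was the largest of the 56 genes (log2 fold change 0.76, SE 0.11, adjusted p = 0.00307 by edgeR). The call held whichever library was left out. A second gene model, ENSG00000285238, covers 54.4% of its exon bases on the same strand. That model was not among the tested genes, since its reads were in 1 library alone. Its mean was 3.79 CPM in CYR61 cells, all from CYR61 1, and 0 in Vector cells. The log2 ratio of the summed means was 0.79. The promoter window of NOP2 also holds an E-box, 36 bases after the RefSeq start.

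NOP16, a nucleolar assembly factor of the large subunit (ENSG00000048162, chr5:176383938-176388975, minus strand), had 75.3 and 75.4 CPM in CYR61 cells, against 51.5 and 44.7 CPM in Vector cells. The mean was 75.3 ± 0.116 CPM in CYR61 cells and 48.1 ± 4.87 CPM in Vector cells (SD, n = 2 each). NOP16 rose 1.57-fold (log2 fold change 0.65, SE 0.13, adjusted p = 0.0164 by edgeR), and the call was lost without Vector 2 (adjusted p = 0.134 by edgeR). On the opposite strand it shares 12% of its exon bases with ARL10 and 7.9% with HIGD2A. With the whole means of HIGD2A added (48.2 CPM in CYR61 cells and 45.8 CPM in Vector cells), the log2 ratio of the summed means was 0.40. With those of ARL10 it was 0.65. These sums also take in all reads of the partner and cannot show the part of shared reads. PES1, BOP1 and WDR12, which form a complex needed for large subunit maturation, had log2 fold changes of 0.33, 0.34 and 0.23 and were not called (adjusted p = 0.117, 0.207 and 0.334 by edgeR). BOP1 was the most abundant of the 14 per kilobase of exon, at 72.1 CPM in CYR61 cells and 56.8 CPM in Vector cells, and its libraries CYR61 1 and Vector 1 were level, both at 233 CPM. RRS1, which helps load a small ribosomal RNA on the large subunit, had a log2 fold change of 0.45 (SE 0.12, adjusted p = 0.0616 by edgeR). RRP1, RRP1B, NOL8 and NOL12 had 0.41, 0.42, 0.55 and 0.42 on the same scale, and NOL9, a polynucleotide kinase of RNA processing, and RRP8, a nucleolar methyltransferase, had 0.12 and 0.17. RRP15 had 31.7 and 22.4 CPM in CYR61 cells and 13.8 and 22.7 CPM in Vector cells, with overlap. Its log2 fold change was 0.57 with an SE of 0.24 (adjusted p = 0.193 by edgeR). NOP53, a late large subunit factor, had 168 and 182 CPM in CYR61 cells and 190.4 and 175 CPM in Vector cells (log2 fold change -0.06, SE 0.11, adjusted p = 0.787 by edgeR), and its log2 fold change was 0.07 with the GC trend removed.

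**Figure D2:**
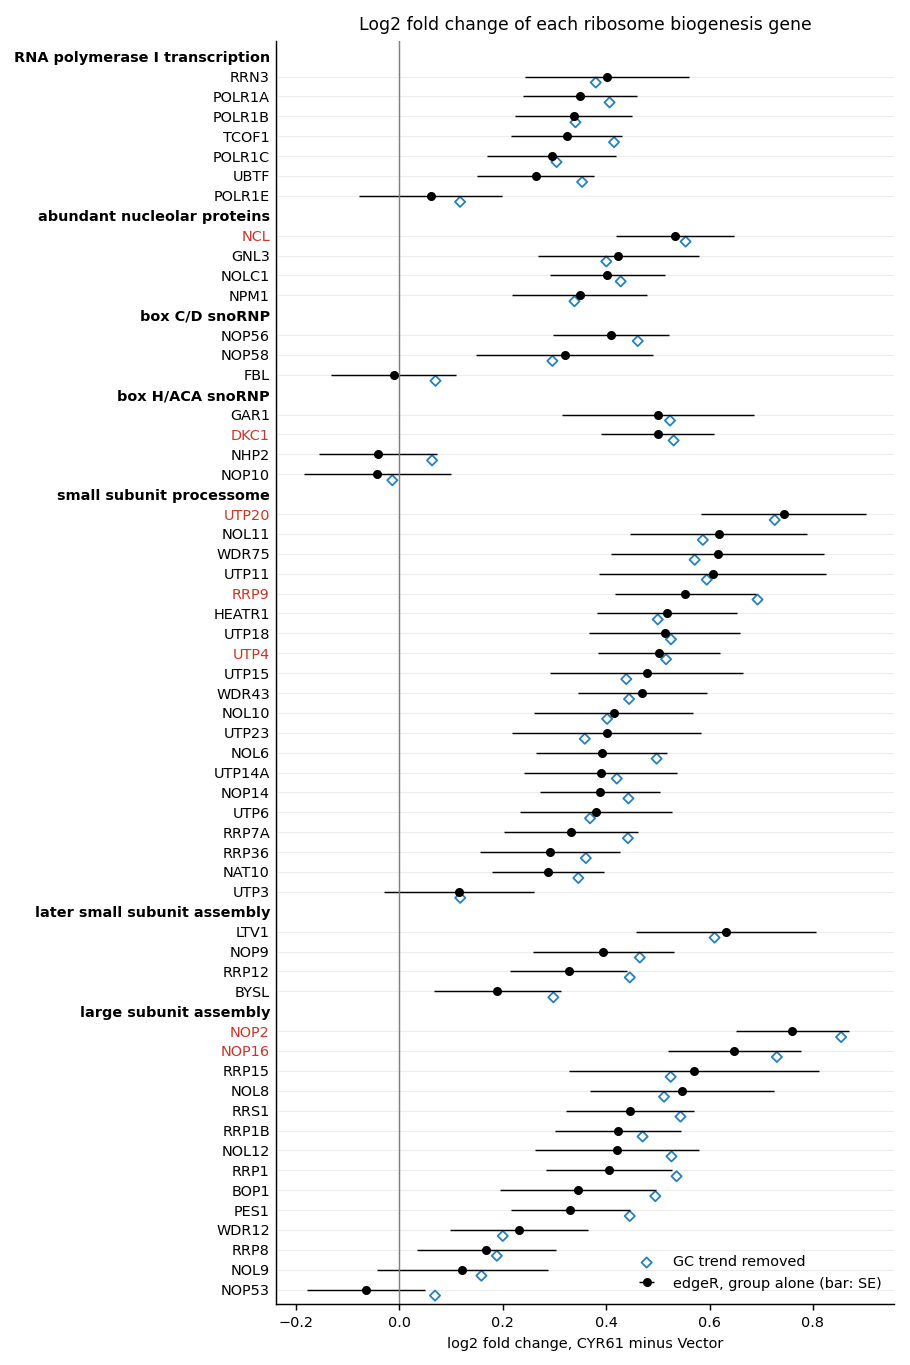
Log2 fold change, CYR61 minus Vector, of the 56 genes by role, as black points with SE bars and the 7 called genes named in red. Open diamonds give the same value after removal of each library's GC trend. The black points run from -0.06 (NOP53) to 0.76 (NOP2).

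Promoter letters and hosted small RNAs were compared next. The 18 genes with an E-box had a median log2 fold change of 0.45 and 4 calls. The 28 genes with a window but no E-box had a median of 0.39 and 3 calls. Of all tested genes, 1.83% were called higher. NOP10, with an E-box beginning 11 bases before the start and a second one further upstream, and FBL both hold the motif. Both had overlapping groups, as had 6154 of the 12698 tested genes. Of the 56 genes, 9 carry an annotated small nucleolar RNA gene within their span, NCL and DKC1 among them. Their median log2 fold change was 0.42 with 2 calls. That of the 47 others was 0.39 with 5 calls, again beside 1.83% of all tested genes. None of these differences was tested.

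Other genes of the same pathway, 120 in 5 lists, gave 11 calls higher (9.17%) and 0 lower, and a median log2 fold change of 0.31. DESeq2 called 23 of the 120 higher, against 2.8% of all tested genes, and 0 lower, against 4.64%. Both CYR61 libraries lay above both Vector libraries for 72 of them, against 23.9% of all tested genes, and below for 3, against 27.7%. Unadjusted p was below 0.05 with a higher level for 52, against 9.77% of all tested genes, and with a lower level for 1. In the list of 46 other large subunit factors, 6 were called. The 4 with the smallest adjusted p were EBNA1BP2, an assembly factor (log2 fold change 0.60, adjusted p = 0.0101 by edgeR), FTSJ3, a methyltransferase (0.62, adjusted p = 0.0106), MRTO4, an assembly factor related to a ribosomal stalk protein (0.60, adjusted p = 0.0144), and GNL2, a GTPase (0.57, adjusted p = 0.026). FTSJ3 shares 16.8% of its exon bases with PSMC5 on the opposite strand. In the list of 33 other small subunit factors, 3 were called: BMS1, a GTPase of the processome (log2 fold change 0.57, adjusted p = 0.0245 by edgeR), TSR1, which blocks early use of the new subunit (0.49, adjusted p = 0.0285), and PDCD11, a scaffold for both subunits (0.45, adjusted p = 0.037). TSR1 shares 20.7% of its exon bases with SRR on the opposite strand, so its value and that of FTSJ3 are uncertain.

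The remaining lists had few calls, to be read beside the 1.83% of all tested genes called higher. Of 23 genes of the RNA exosome and RNase MRP, POP1, a protein of RNase MRP, was called (log2 fold change 0.58, adjusted p = 0.0287 by edgeR). Of 9 further RNA polymerase I genes, the subunit POLR1G was called (log2 fold change 0.81, adjusted p = 0.0245 by edgeR), but 43.5% of its exon bases overlap ERCC1 on the opposite strand and its value is uncertain. Of 9 further genes for nucleolar RNA particles and their assembly, 0 were called. The smallest p among them was that of RUVBL1, an ATPase of the assembly machinery (log2 fold change 0.34, adjusted p = 0.0947 by edgeR).

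The ribosomal proteins themselves join the pre-ribosomes as they form. Of 79 genes, 0 were called in either direction by edgeR, DESeq2 or limma-voom. Unadjusted p was below 0.05 for 1 higher and 1 lower in edgeR. By edgeR, 1.83% of all tested genes were called higher, 4.56% were called lower, and 9.77% were higher with unadjusted p below 0.05. The median log2 fold change was 0.01, with 47 genes above 0 and 32 below and a range of -0.28 to 0.34. Their summed level was 68586 and 72426 CPM in CYR61 cells and 74728 and 67042 CPM in Vector cells, so the groups overlapped. After removal of a trend on GC content, 5 of the 79 were called higher, against 16.5% of all tested genes in that fit. RPS7 had the smallest p of the list (log2 fold change 0.34, adjusted p = 0.179 by edgeR). The difference between these genes and the 56 biogenesis genes was not tested.

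**Figure D3:**
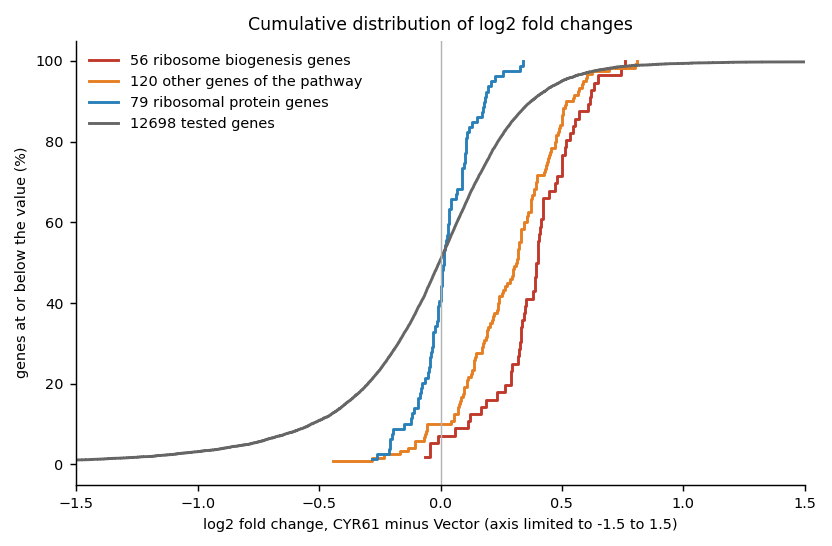
Cumulative share of genes (vertical axis, percent) at or below each log2 fold change, CYR61 minus Vector (horizontal axis, its outermost values not shown), for the 56 genes, 120 other pathway genes, 79 ribosomal protein genes and 12698 tested genes. The medians are 0.40, 0.31, 0.01 and -0.006.

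Part of the spread between replicates of these genes moved with base composition. The GC content of the longest annotated transcript ran from 35.2% (RRP15) to 65.2% (BOP1). Across the 56 genes, which share the 4 libraries, Spearman's rho of GC content was -0.82 with the log2 difference CYR61 1 minus CYR61 2 and -0.80 with Vector 2 minus Vector 1. It was -0.35 with the log2 fold change between groups. The trend between replicates was not particular to these genes. Over 10364 genes of at least 5 CPM, rho was -0.78 with CYR61 1 minus CYR61 2 and 0.73 with Vector 1 minus Vector 2. With the log2 fold change between groups it was -0.17 over those genes. For the 20 genes under 45% GC, the median of these log2 differences between replicates was 0.38 in CYR61 cells and 0.27 in Vector cells, the median SE was 0.16, the median log2 fold change was 0.45 and 1 gene (UTP20) was called. For the 36 genes at or above 45% GC, those differences were -0.01 in CYR61 cells and -0.07 in Vector cells. In this set the median SE was 0.12, the median log2 fold change was 0.37 and 6 genes were called. Both counts of calls stand beside 1.83% of all tested genes called higher. UTP11 at 54.3 and 35.7 CPM in CYR61 cells and 24.3 and 34.9 CPM in Vector cells shows the first kind of gene, and NOP2 the second.

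**Figure D4:**
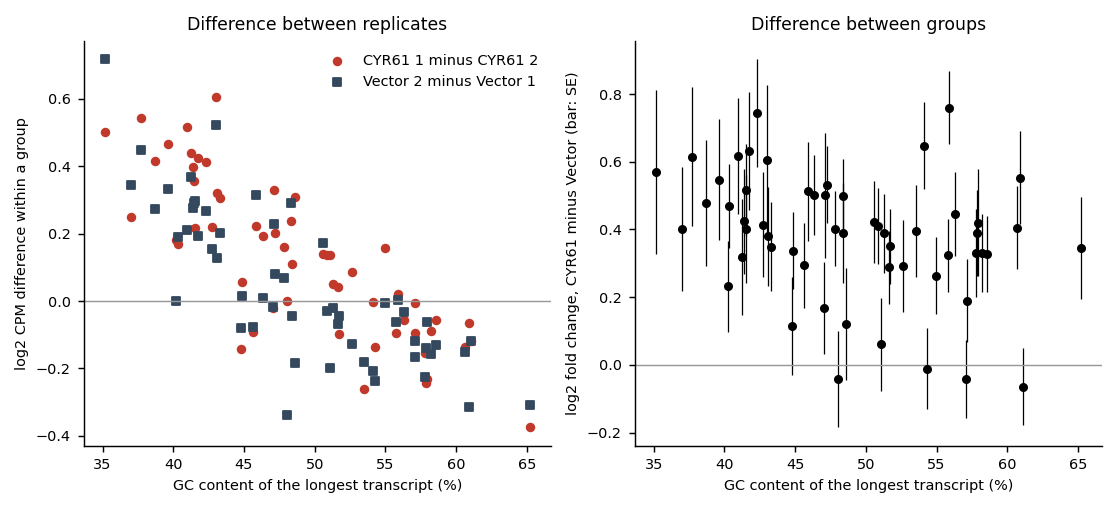
Left, log2 CPM difference between the replicates of a group for each of the 56 genes (red circles CYR61 1 minus CYR61 2, dark squares Vector 2 minus Vector 1) against GC content in percent. Right, log2 fold change between groups with SE bars against GC content. Spearman's rho with GC content is -0.82 and -0.80 for the replicate differences and -0.35 for the fold changes.

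How many of the 56 genes were called depended on the processing more than their direction did. With a trend on GC content removed from each library, 47 were called higher, against 16.5% of all tested genes, and 58.1% of all calls were then higher in CYR61 cells, against 28.6% before. The test of DESeq2 called 18 higher (2.8% of all tested genes), and edgeR without a filter on low counts called 26 (4.03%). Without CYR61 2, the library of least depth, 23 were called (4.13%), and without CYR61 1, 4 were called (1.48%). Without Vector 1, 3 were called (0.802%), and without Vector 2, 10 were called (1.42%). Scaling moved the count little, with 9 under RLE size factors (1.9%), 8 under upper quartile scaling (1.88%), 6 under library size alone (1.28%) and 7 with library sizes taken without CYR61 (1.82%). A filter of 5 CPM in 2 libraries gave 7 (1.79%), and limma-voom gave 7 (1.72%). No gene of the 56 was called lower in any of these settings, and 50 of the 56 had a log2 fold change above 0 in every one.

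**Figure D5:**
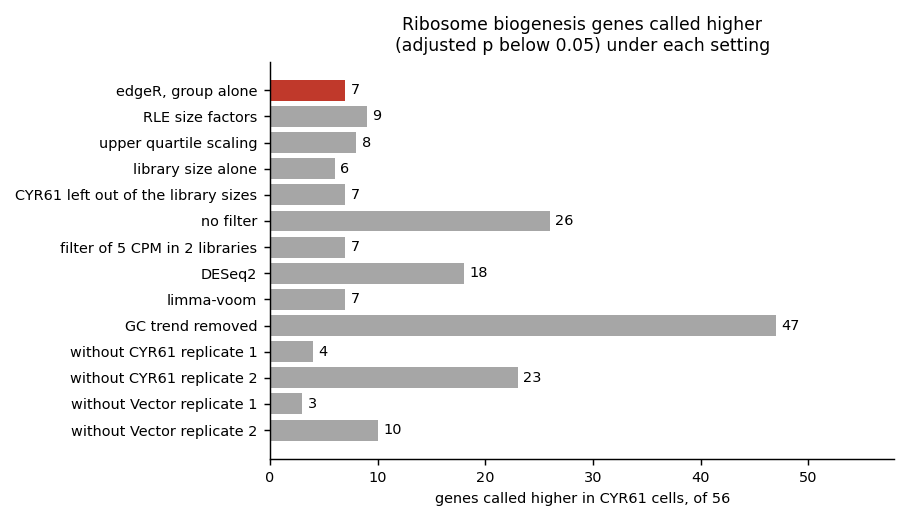
Number of the 56 genes called higher in CYR61 cells (horizontal axis) in the edgeR test on group alone (red) and under each alternative without a replicate block (grey). The counts run from 3 without Vector 1 to 47 with the GC trend removed.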

How the data were processed

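RNA of 4 HLE cultures was sequenced, 2 with CYR61 and 2 with Vector. Estimated counts of 20286 Ensembl genes were deposited by the authors, 1 file per library, and 11.2% to 12.0% of values were not whole. Per the submitters' processing notes, TopHat2 2.1.1, Cuffdiff 1.3.0 and Cufflinks 2.2.1 were used on hg38. The sources used here do not give the counting program, annotation or strandedness, so overlapping and duplicated genes may share reads.

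The deposited estimated counts were rounded, filtered with filterByExpr (12698 genes kept, 7588 not tested), scaled by TMM and fitted on group alone with glmQLFit and glmQLFTest of edgeR 4.0.16 in R 4.3.3, p-values being adjusted by Benjamini and Hochberg's method (threshold 0.05). CPM use TMM-scaled library sizes, and SE is the absolute log2 fold change over the square root of F. The precision rests on 2 cultures per group: an exact permutation test of 1 gene could not give a two-sided p under 0.333. Alternatives were DESeq2 1.42.0, voom of limma 3.58.1, other scalings and filters, removal of a GC spline per library (5 degrees of freedom), the replicate number as a block, and each library left out. Scripts were tested on simulated counts.

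Symbols came from a gene-name table (20228 identifiers), positions, exon lengths and GC content from GENCODE 29 on GRCh38 (20212), and promoters from RefSeq. The members and lists were chosen with earlier results of these data known. Full values were given for each called member, for the 2 of smallest p per role where fewer were called, for the most abundant per kilobase in each role, and in other lists for up to 4 called genes or the 1 of smallest p. Further members, the E-box and UTP11 were picked after their values were seen.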

Additional observations from a re-analysis of the deposited data

How the results depend on the processing

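Both CYR61 and Vector rest on 2 cultures, and a single library moved most counts of calls, so the number of called genes is less stable than their direction. No alternative called any of the 56 genes lower. Leaving out 1 library gave 3 to 23 of the 56 called higher, beside 0.802% to 4.13% of all tested genes called higher in those fits. The count for the 56 thus moved along with the share of all tested genes. The median log2 fold change of the 56 was 0.33 to 0.48. In the same fits, 3 to 31 other pathway genes were called higher and 0 to 1 lower. For ribosomal protein genes 0 to 1 were called higher, and there were 481 to 1331 called genes in all. With no filter, 26 of the 56 and 32 other pathway genes were called higher among 1677 calls (4.03% of tested genes higher). With DESeq2, 18 and 23 were called higher (2.8% of tested genes higher). With the GC trend removed, 47 of the 56, 68 other pathway genes (1 lower) and 5 ribosomal protein genes were called higher among 3611 calls (16.5% of tested genes higher). NOP2 was called in all 17 alternatives.

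The labels state no pairing of the cultures. Same-numbered libraries deviated from their group means with a correlation of -0.38, which cannot tell whether the cultures were paired. With the replicate block, 2 of the 56 (NOP2 and UTP20) and 1 other pathway gene were called higher among 391 calls (0.417% of tested genes higher). Adjusted p of the other 5 called genes was then 0.109 for NOP16, 0.178 for NCL, 0.205 for RRP9, 0.248 for DKC1 and 0.271 for UTP4. With the GC trend removed and the replicate block, the counts were 43, 56 (1 lower) and 2 ribosomal protein genes among 2296 (10.2% of tested genes higher and 7.88% lower). With the crossed block, chosen after seeing the data, they were 48, 80 (4 lower) and 17 (11 lower) among 5624 (21.6% of tested genes higher and 22.6% lower), and with GC removal added 49, 88 (3 lower) and 26 (8 lower) among 5754 (26.5% higher and 18.8% lower).

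The log2 fold change changed sign for 6 genes, all uncalled and near 0, and the cause was not tested. FBL was at 0.0045 with RLE size factors and with DESeq2, at 0.0697 with GC removal alone, 0.0712 with the replicate block added and 0.0716 with the crossed block added, and at -0.119 to 0.112 with 1 library left out. NHP2 was at 0.0631, 0.0626 and 0.063 in those 3 fits with GC removal, and at -0.0943 to 0.0192 with 1 library left out. NOP53 was at 0.0688, 0.0682 and 0.0684 in the same fits, and at -0.124 to 0.00707 with 1 library left out. With 1 library left out, NOP10 ran from -0.197 to 0.136, NOL9 from -0.0312 to 0.265 and POLR1E from -0.0304 to 0.161.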
